A study of Mus musculus with 2 samples.

Results

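Cyp2d genes encode the CYP2D cytochromes P450 of mouse liver. Members were taken by gene symbol from the deposited TPM table (TPM, each gene's length-corrected share of the transcript pool), and all 9 sought (Cyp2d9, Cyp2d10, Cyp2d11, Cyp2d12, Cyp2d13, Cyp2d22, Cyp2d26, Cyp2d34 and Cyp2d40) were among its 24054 genes. Liver RNA came from male C57BL/6 mice aged 8 to 12 weeks of 2 genotypes, Pgrmc1 KO (Pgrmc1 -/Y) and WT. RNA of 5 mice per genotype (2.5 μg each) was pooled into 1 library, so there were no replicates, variation between mice is unknown, and no p-value could be given for any difference. In KO mice exons 1 and 2 of the X-linked Pgrmc1 gene had been removed in the whole body, by crossing a floxed allele made in C57BL/6N embryonic stem cells to Sox2-Cre mice, whose Cre is active in the early embryo. The loss was therefore present throughout life and in every tissue, not in hepatocytes alone.

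Cytochromes P450 are heme-containing monooxygenases of the endoplasmic reticulum that oxidize drugs, steroids and other lipids with electrons from cytochrome P450 reductase and cytochrome b5. CYP2D enzymes are known for the metabolism of basic drugs; humans rely on a single active gene, CYP2D6, whereas mice carry a cluster of copies. Cyp2d9, a testosterone hydroxylase, is a classic male-biased liver gene whose expression follows the pulses of growth hormone through STAT5b, and HNF4α supports liver Cyp2d transcription. Pgrmc1 encodes a heme-binding membrane protein with a cytochrome b5-like domain that associates with P450s.

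All 9 genes lie on chromosome 15 of GRCm38 (mm10), between 82370527 and 82794452, a stretch of 424 kb with 26 RefSeq genes, among them 9 annotated Cyp2d pseudogenes. Their order along the chromosome is Cyp2d22, Cyp2d11, Cyp2d10, Cyp2d9, Cyp2d12, Cyp2d34, Cyp2d13, Cyp2d40 and Cyp2d26. Cyp2d9 and Cyp2d12 are on the plus strand, and the other members with a GENCODE entry are on the minus strand. RefSeq lists 8 members as protein coding and Cyp2d13 as a transcribed pseudogene. Cyp2d13 was kept because its symbol was among those sought, and sums without it are given.

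The copies are close relatives, which bears on how reads can be assigned to them. The stretch of coding sequence around the heme is shown because it is the catalytic signature of the family. It differs at few bases between a very abundant member, Cyp2d9, and a nearly silent one, Cyp2d11. Over the whole coding sequence Cyp2d9 and Cyp2d11 were 93.3% identical across 1512 aligned bases. Each line holds 30 bases of the GENCODE M21 coding sequence for the heme-binding loop, found by its FxxGxxxCxG pattern in the translation. Capitals mark the codon of the cysteine that ligates the heme iron.
Cyp2d9: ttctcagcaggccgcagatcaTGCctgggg
Cyp2d26: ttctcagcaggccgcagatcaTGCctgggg
Cyp2d10: ttctcagcaggccgcagatcaTGCctgggt
Cyp2d11: ttctcagcaggacacagatcaTGCctgggg
Cyp2d40: ttctcagcaggccgtcgagcaTGTctgggt
The Cyp2d22 and Cyp2d26 loops matched that of Cyp2d9 at every base, those of Cyp2d10, Cyp2d12 and Cyp2d34 differed from it at 1 base, that of Cyp2d11 at 2 bases and that of Cyp2d40 at 5. Over the whole coding sequence, identity among the 8 protein-coding members ran from 77.9% (Cyp2d12 with Cyp2d22) to 94.7% (Cyp2d10 with Cyp2d11). The coding sequences give proteins of 504 residues for Cyp2d9, Cyp2d10, Cyp2d11, Cyp2d12 and Cyp2d34 and of 500 for Cyp2d22 and Cyp2d26, with the cysteine at residue 446 in each. The GENCODE model of Cyp2d40 is shorter, with 338 residues and the cysteine at residue 284.

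RefSeq promoters of GRCm38.p6 were at hand for 5 members, Cyp2d9, Cyp2d10, Cyp2d11, Cyp2d26 and Cyp2d40, and are shown because the most abundant member and a nearly silent one share much of theirs. Each line gives the 250 bases before the listed transcription start, 5′ to 3′ on the gene's strand. Capitals mark the letters CAAAGNGCA, which resemble a site for HNF4α, followed by TTTATAAGG, which resembles a TATA box.
Cyp2d9, chr15:82452127-82452376, plus strand: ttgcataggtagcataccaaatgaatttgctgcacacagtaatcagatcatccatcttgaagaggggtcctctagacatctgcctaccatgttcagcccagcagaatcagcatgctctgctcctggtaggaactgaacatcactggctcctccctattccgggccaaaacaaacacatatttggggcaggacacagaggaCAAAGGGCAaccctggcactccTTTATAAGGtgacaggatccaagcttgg
Cyp2d11, chr15:82394023-82394272, minus strand: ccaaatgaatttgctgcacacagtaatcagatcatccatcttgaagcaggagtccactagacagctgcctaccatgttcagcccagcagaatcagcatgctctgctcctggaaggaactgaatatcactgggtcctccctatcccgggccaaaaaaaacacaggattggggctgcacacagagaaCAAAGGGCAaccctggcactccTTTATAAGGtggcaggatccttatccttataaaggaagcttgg
Cyp2d10, chr15:82407195-82407444, minus strand: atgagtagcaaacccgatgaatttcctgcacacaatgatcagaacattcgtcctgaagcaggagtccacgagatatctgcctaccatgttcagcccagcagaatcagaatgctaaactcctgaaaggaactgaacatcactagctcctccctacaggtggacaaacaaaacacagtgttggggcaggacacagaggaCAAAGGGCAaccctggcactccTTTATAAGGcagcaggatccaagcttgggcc
Cyp2d26, chr15:82794246-82794495, minus strand: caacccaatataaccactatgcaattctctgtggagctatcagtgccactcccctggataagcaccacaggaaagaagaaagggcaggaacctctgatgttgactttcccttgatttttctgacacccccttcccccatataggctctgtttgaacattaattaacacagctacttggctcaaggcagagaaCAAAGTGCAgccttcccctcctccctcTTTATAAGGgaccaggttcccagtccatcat
Cyp2d40, chr15:82764123-82764372, minus strand: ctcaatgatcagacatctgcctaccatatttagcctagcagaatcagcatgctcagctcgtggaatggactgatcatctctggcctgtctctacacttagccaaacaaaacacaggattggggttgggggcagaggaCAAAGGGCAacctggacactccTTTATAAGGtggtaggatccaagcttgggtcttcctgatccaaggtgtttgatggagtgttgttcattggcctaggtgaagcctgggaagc
Both strings were chosen after these promoters had been read, so their presence in them is a description. Over both strands, TTTATAAGG was in 0.24% and CAAAGNGCA in 1.13% of the 32851 RefSeq promoters, each taken over the same 250 bases, and both stood on the gene's strand in 5 promoters in all, those of the members shown. The marked strings begin 50 and 28 bases before the start in Cyp2d9, 53 and 31 in Cyp2d10, 65 and 43 in Cyp2d11, 58 and 31 in Cyp2d26 and 113 and 91 in Cyp2d40. The listed starts of Cyp2d10 and Cyp2d26 lie inside the RefSeq span of the gene, so their windows partly overlap it. In Cyp2d11 the second string also occurs once on the opposite strand, which is not in capitals. The letters TTCNNNGAA, which resemble a STAT5 site, were in none of the 5 windows and in 7.02% of all promoters. The Cyp2d9 and Cyp2d11 windows were 93.6% identical over 234 aligned bases, against 85% over 246 for Cyp2d9 with Cyp2d10. Their levels were far apart, at 1256.77 TPM for Cyp2d9 and 0.83 TPM for Cyp2d11 in WT liver, a ratio of 1514, and 1344.51 and 0.96 TPM in KO liver, a ratio of 1401.

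Pgrmc1 itself followed the genotype labels. It stood at 0.68 TPM in the KO library and 949.49 TPM in the WT library, a log2 change of -9.14. Changes throughout are log2((KO TPM + 1)/(WT TPM + 1)), which understates the change of low genes. Intervals (Clopper-Pearson, 95%) belong to the KO to WT ratio of the authors' means, which are size-factor-scaled read estimates from a second deposited table, and cover counting error only. On that table's scale the libraries held an estimated 22086688 reads in KO and 29710410 in WT. Hepatocyte markers changed little (6 of 6 detected, summed 70936 TPM in KO liver and 73779 TPM in WT liver). In bulk liver, fewer cells of a type and less RNA per cell cannot be told apart.

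The members formed 3 levels in both libraries, in the same order. Cyp2d9, Cyp2d10 and Cyp2d26 were abundant, and together held 89.5% of all Cyp2d TPM in KO and 90% in WT. Cyp2d13, Cyp2d22 and Cyp2d40 were intermediate, with 10.4% in KO and 9.9% in WT. Cyp2d11, Cyp2d12 and Cyp2d34 were below 1 TPM in both libraries. From the highest to the lowest member, WT levels spanned a ratio of 11425.

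**Figure D1:**
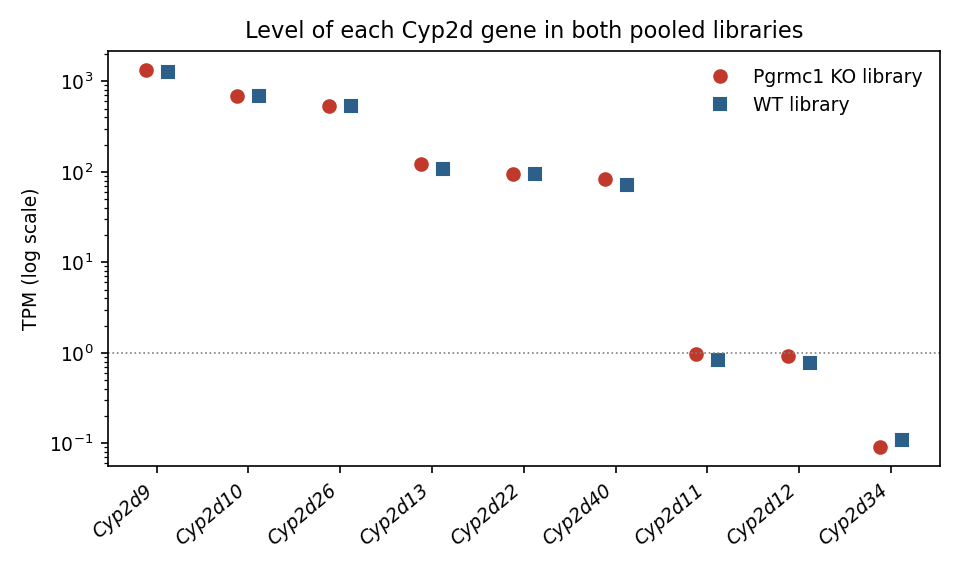
TPM of the 9 Cyp2d genes (log scale) in the Pgrmc1 KO library (circles) and the WT library (squares), ordered by mean level, with a dotted line at 1 TPM. Each symbol is 1 pooled library, so there are no error bars. The libraries lie almost on top of each other for every gene, while the genes span from 0.09 to 1344.51 TPM.

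Cyp2d9 was the most abundant member, and the 4th most abundant P450 gene of the table by mean TPM. Its level was 1344.51 TPM in KO liver and 1256.77 TPM in WT liver, on 28060 and 35036 estimated reads. The KO library was thus 1.07-fold higher (log2 0.10, interval of the ratio of means 0.09 to 0.14). The counting interval excluded 0, but the variation between mice, which it does not cover, was not measured. Cyp2d9 alone made up 70% of the difference in summed Cyp2d TPM between the libraries.

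Cyp2d10, the neighbour of Cyp2d9 among the expressed members, was at 692.74 TPM in KO liver and 682.58 TPM in WT liver. The difference was 10.16 TPM (log2 0.02, interval of the ratio of means 0.01 to 0.07). Cyp2d26, at the far end of the cluster, was the closest to equal. It was at 536.17 TPM in KO liver and 535.73 TPM in WT liver (log2 0.00, interval -0.02 to 0.05). The ratio of Cyp2d9 to Cyp2d10 was 1.94 in KO and 1.84 in WT, so the order and spacing of the abundant members were much alike in both livers.

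Among the intermediate members, Cyp2d22, often treated as the closest mouse counterpart of human CYP2D6, was at 94.50 TPM in KO liver and 93.85 TPM in WT liver (log2 0.01, interval -0.04 to 0.09). Its interval, like that of Cyp2d26, spanned 0. Cyp2d40 had the highest change of the members above 1 TPM, with 83.66 TPM in KO liver and 71.19 TPM in WT liver (log2 0.23, interval 0.13 to 0.37). That was a 1.17-fold difference, and of the 1795 genes with a mean TPM of 50 or more, 8.64% differed by as much in either direction. The transcribed pseudogene Cyp2d13 was at 120.96 TPM in KO liver and 107.25 TPM in WT liver (log2 0.17, interval 0.11 to 0.27).

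Cyp2d37-ps, which lies between Cyp2d13 and Cyp2d40 and was the gene with a -ps symbol in the cluster that had a value in the table, was at 101.10 TPM in KO liver and 95.19 TPM in WT liver (log2 0.09, interval -0.03 to 0.26). It rests on few reads for its TPM, 711 in KO and 886 in WT. TPM is corrected for length, so units of the authors' mean per TPM go with the length of the gene model. They were 8.01 for Cyp2d37-ps, 24 for Cyp2d9 and 42.2 for Cyp2d22, whose GENCODE transcript has 2769 bases against 1712 for Cyp2d9. The GENCODE M21 transcript of Cyp2d37-ps has 1677 bases, close to that of Cyp2d9, so its low value does not go with that length. The gene model behind its TPM was not checked. The interval of Cyp2d37-ps also spanned 0.

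The low members could not be compared at this depth. Cyp2d11 was at 0.96 TPM in KO liver and 0.83 TPM in WT liver on 17.95 and 21 estimated reads, with an interval of -0.78 to 1.19. Cyp2d12 was at 0.92 and 0.78 TPM on 18.05 and 20 reads, with an interval of -0.72 to 1.28. Cyp2d34 was at 0.09 and 0.11 TPM, on 0.94 and 2 reads, with a ratio of means of 0.635 and an interval of 0.0114 to 13. Cyp2d11 and Cyp2d12 differed from each other by fewer reads than counting error allows for, so their order is not settled.

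**Figure D2:**
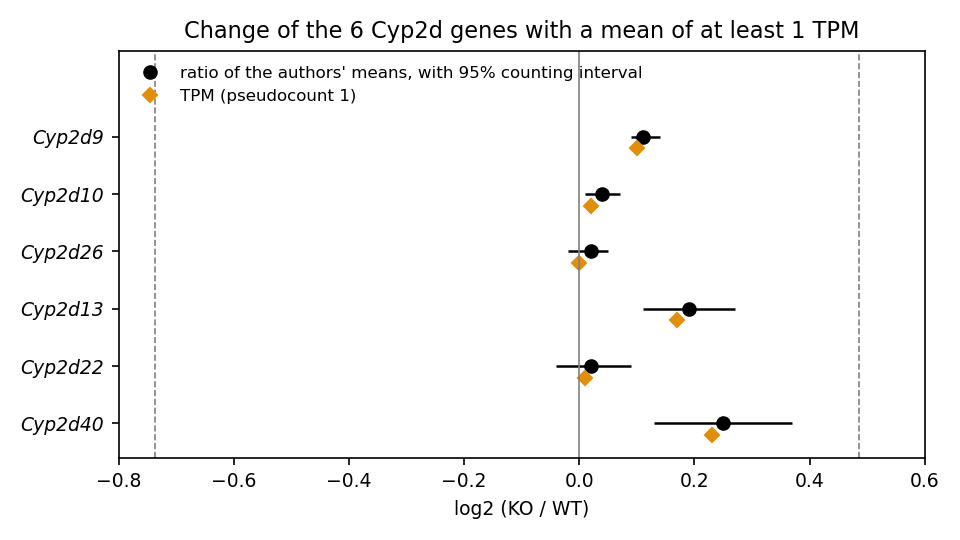
Difference between the Pgrmc1 KO and WT libraries on a log2 scale for the 6 Cyp2d genes with a mean TPM of 1 or more, as the ratio of the authors' means with its 95% counting interval (black) and from TPM with a pseudocount of 1 (diamonds). Dashed lines mark 1.4-fold and 0.6-fold. Every gene lies at or above 0 and well inside the dashed lines, and the intervals of Cyp2d22 and Cyp2d26 include 0.

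By the fold rule (at least 1.4-fold for higher and at most 0.6-fold for lower in KO, with a mean TPM of 1 or more and a TPM above 0 in both libraries), 0 of the 6 members that could be assessed were higher and 0 were lower. Over all 11609 genes assessed the shares were 1.09% higher and 0.301% lower, which leaves a count of 0 among 6 near the background. All 6 had a change above 0, with a median of 0.06 and a range of 0.00 to 0.23, against a median of -0.01 over all genes, of which 45.7% were above 0. The 5th and 95th percentiles of genes with a mean TPM of 50 or more were -0.23 and 0.19. Of the members, Cyp2d40 lay above the latter and the others lay between. The remaining 3 members did not reach 1 TPM.

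**Figure D3:**
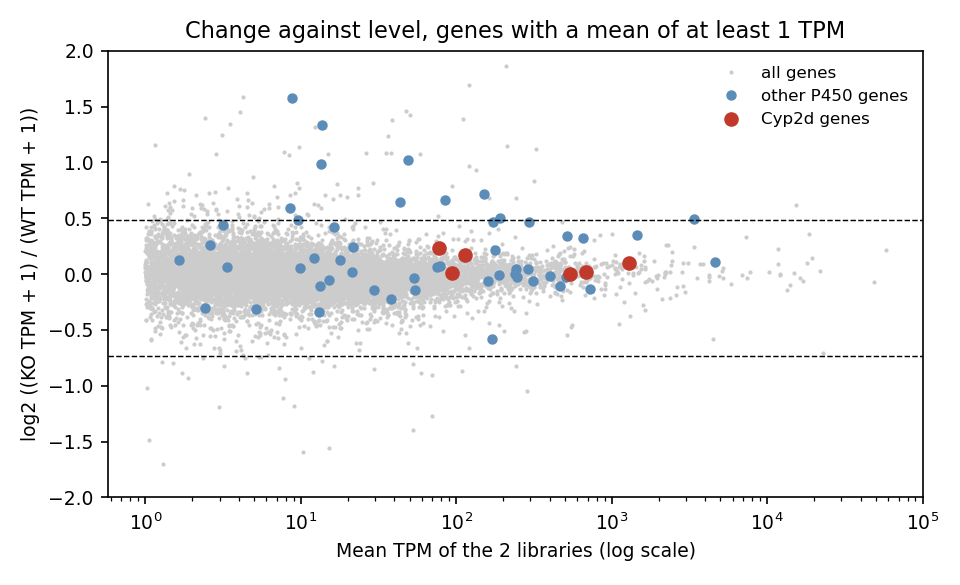
Change between the libraries (log2 of KO over WT, TPM plus 1) against mean TPM (log scale) for genes with a mean TPM of 1 or more. Cyp2d genes are large red points, other P450 genes blue and all genes grey; dashed lines mark 1.4-fold and 0.6-fold. Genes that changed by more than 2 on this scale, Pgrmc1 among them, fall outside the axis. The 6 Cyp2d genes sit within the grey band at their level, between 0.00 and 0.23.

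Summed over the 9 members, Cyp2d transcripts were at 2874.5 TPM in KO liver and 2749.1 TPM in WT liver, a difference of 125.4 TPM and a ratio of 1.05 (log2 0.06, interval of the ratio of summed means 0.06 to 0.09). Without Cyp2d13 the sums were 2753.6 and 2641.8 TPM, a ratio of 1.04. Without Cyp2d9 they were 1530.0 and 1492.3 TPM, a ratio of 1.03. The sum stayed higher in KO in both cases, although Cyp2d9 set most of the difference.

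The other P450 genes of the table differed more in their sum but not in their median. Their sum was 17939.1 TPM in KO liver and 15645.4 TPM in WT liver, a ratio of 1.15. By the fold rule, 11 of the 53 with a mean TPM of 1 or more were higher and 1 was lower. Over all genes assessed the shares were 1.09% higher and 0.301% lower. The median change of these other P450 genes was 0.06, with 32 of 53 above 0, the same median as that of the Cyp2d genes. Cyp3a and Cyp2c genes made up most of the difference in the sum. Cyp2d genes therefore held a smaller share of summed P450 TPM in KO liver, 13.8%, than in WT liver, 14.9%, while their own sum was slightly higher. Without the transcribed pseudogene Cyp2d13 in the numerator the shares were 13.2% and 14.4%. With 1 library per genotype, the difference between Cyp2d and other P450 genes was not tested.

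By subfamily, Cyp3a genes, which encode major drug-metabolizing enzymes, summed to 4556.6 TPM in KO liver and 3414.1 TPM in WT liver (ratio 1.33). Cyp2c genes, a large subfamily of drug and fatty acid oxidases, summed to 4129.1 and 3433.3 TPM (ratio 1.2). Cyp2b genes, classic targets of the nuclear receptor CAR, summed to 18.4 and 8.9 TPM. In these subfamilies the KO library was higher by a larger ratio than in Cyp2d. Cyp2a genes went the other way, with 538.3 TPM in KO liver and 683.7 TPM in WT liver (ratio 0.787). Cyp2j genes, which include epoxygenases of arachidonic acid, were at 351.7 and 368.7 TPM (ratio 0.954), about as close to 1 as Cyp2d. By mean sum, Cyp2d ranked behind Cyp2c and Cyp3a and ahead of the others named here.

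**Figure D4:**
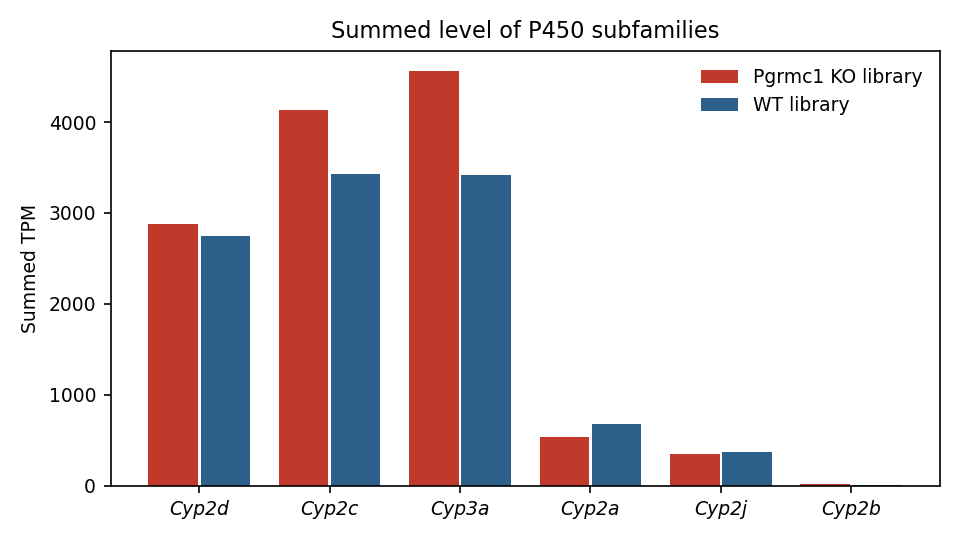
Summed TPM of 6 P450 subfamilies in the Pgrmc1 KO library (red) and the WT library (blue), 1 pooled library each and without error bars. The Cyp2d bars, at 2874.5 and 2749.1 TPM, differ little, while those of Cyp2c and Cyp3a are higher in KO and that of Cyp2a is lower.

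Genes flanking the cluster also differed little between the libraries. Before it, Smdt1, a subunit of the mitochondrial calcium uniporter complex, was at 130.71 TPM in KO liver and 132.34 TPM in WT liver, and Ndufa6, a subunit of respiratory complex I, at 396.24 and 384.83 TPM. After it, Tcf20, a transcriptional coregulator, was at 21.99 and 23.18 TPM, Nfam1, an immune receptor, at 1.72 and 1.8 TPM, and Serhl, a serine hydrolase-like gene, at 18.98 and 18.93 TPM. The changes of these neighbours ran from -0.07 to 0.04 on the log2 scale. Pheta2, next before Smdt1, had no value under that symbol. Mir7684, a microRNA gene within the cluster, was listed at 0 in both libraries. Members below 1 TPM lie among more abundant ones along the cluster, with Cyp2d11 between Cyp2d22 and Cyp2d10, and Cyp2d12 and Cyp2d34 between Cyp2d9 and Cyp2d13.

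**Figure D5:**
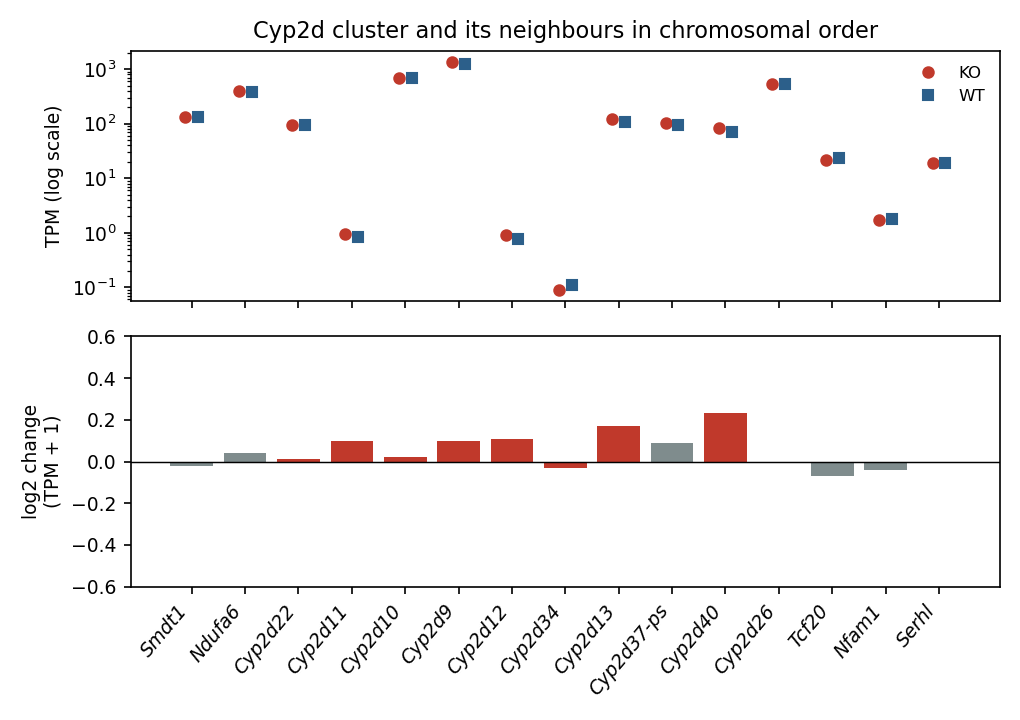
Upper panel, TPM (log scale) of the Cyp2d genes, Cyp2d37-ps and the flanking genes in chromosomal order, in KO (circles) and WT (squares). Lower panel, change between the libraries (log2 of KO over WT, TPM plus 1), with Cyp2d genes in red and the rest in grey. Levels jump between neighbours, from 0.09 to 1344.51 TPM, while changes stay between -0.07 and 0.23.

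The similarity of the copies could move reads between them, since RSEM divides a read that matches several genes. Of the 100-base windows of GENCODE transcripts, 11.7% of those of Cyp2d10 and 12.2% of those of Cyp2d11 were found in another gene, 165 of them in each other. Windows were pooled over all transcripts of a gene, 3299 for Cyp2d9 and 4272 for Cyp2d12 against 1961 for Cyp2d10 and 1491 for Cyp2d11. The shares therefore depend on the transcripts annotated, and their ranking does not measure how many reads were divided. The share was 7.91% for Cyp2d9, most often with the pseudogene Gm46501, and 1.73% for Cyp2d12, all with Cyp2d9. It was at most 0.319% for Cyp2d22, Cyp2d26, Cyp2d34 and Cyp2d40. GENCODE M21 need not be the annotation behind the TPM. Gm46501 had no TPM under that symbol, so whether windows shared with it moved reads out of Cyp2d9 or into it is unknown. The levels of Cyp2d11 and Cyp2d12, which share windows with far more abundant genes, are uncertain because shared reads had to be divided. Among the members above 1 TPM that could be assessed, Cyp2d26, Cyp2d22 and Cyp2d40 had the smallest shares of such windows. Only exact matches were counted. Cyp2d13 had no GENCODE entry under its symbol, so windows shared with it could not be searched. How far the values depend on the division of shared reads was not measured.

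P450s depend on redox partners for electrons. Of 6 listed genes, 5 were in the table with a mean TPM of 1 or more, and 0 passed the fold rule in either direction. The shares over all genes were 1.09% higher and 0.301% lower. Por, the cytochrome P450 reductase, was at 179.35 TPM in KO liver and 178.39 TPM in WT liver. The changes ran from -0.20 for Cyb5r3, a cytochrome b5 reductase (250.08 and 287.74 TPM), to 0.09 for Cyb5r1 (5.85 and 5.44 TPM), with a median of 0.01. In the heme-binding family of Pgrmc1 itself, Pgrmc2, its closest relative, was at 22.40 and 26.74 TPM (log2 -0.25), and Cyb5d2 was the highest at 0.03. Pgrmc1 was the member of its family past the fold rule.

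Of 15 listed regulators of liver Cyp2d and male-biased genes, 14 had a mean TPM of 1 or more, with a median change of -0.02. By the fold rule 1 was higher and 0 lower, against 1.09% and 0.301% of all genes. Hnf4a, the nuclear receptor named above, was at 262.25 TPM in KO liver and 277.08 TPM in WT liver. Stat5b was at 28.27 and 28.87 TPM, and Ghr, the growth hormone receptor, at 411.61 and 412.59 TPM. Hnf4a, Stat5b and Ghr, picked from the list after their values had been seen, were close to equal in both libraries. The interval of Hnf4a, -0.10 to -0.04, excluded 0. Others of the list moved further. Bcl6, a transcriptional repressor that is male-biased and competes with STAT5 in liver, was at 22.55 TPM in KO liver and 13.40 TPM in WT liver (log2 0.71), past the fold rule. Foxa2, a pioneer factor of liver genes, was the lowest at 14.70 and 20.96 TPM (log2 -0.48), and Nr0b2, the repressor SHP, was at 44.42 and 59.37 TPM (log2 -0.41).

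Other male-biased liver genes give a comparison for Cyp2d9. Of 18 listed, 17 had a mean TPM of 1 or more, with a median change of 0.06 and 11 above 0. By the fold rule 1 was higher and 0 lower, against 1.09% and 0.301% of all genes, and a single gene is no result about the list. Susd4, a complement inhibitor, was the highest at 15.71 TPM in KO liver and 9.90 TPM in WT liver (log2 0.62). Mup20, a male pheromone of the major urinary proteins, was the lowest at 17437.62 and 28502.59 TPM (log2 -0.71). Mup20 belongs to a family of near-identical copies and its value is uncertain. Hsd3b5, a steroid reductase found in male liver, was at 221.72 and 194.72 TPM. Of 17 female-biased genes, 5 reached 1 TPM, with a median of -0.13, running from Cyp2a4, a steroid hydroxylase (0.22 and 70.88 TPM), to Cyp2c69 (13.66 and 3.9 TPM). Cyp2a4 and Cyp2c69 also have close copies, and were the 1 lower and the 1 higher gene of that list.

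Markers of other liver cells moved by at most 0.18 on the log2 scale of their sums. Those of Kupffer cells, the resident macrophages, summed to 177 TPM in KO liver and 157 TPM in WT liver. Of 6 listed, 5 had a value under the symbol used (Adgre1 had none). All 5 were above 0 (highest Clec4f, 0.19, and lowest Vsig4, 0.10). Endothelial cell markers summed to 145 and 161 TPM, with 0 of 6 above 0 (from Lyve1, -0.60, to Stab2, -0.04). Kupffer and endothelial lists thus moved in opposite directions. Stellate cell markers summed to 206 and 234 TPM (from Rgs5, -0.53, to Lrat, 0.17) and those of cholangiocytes to 66.2 and 69.9 TPM (lowest Epcam, -0.59). Red cell markers summed to 1412 and 1429 TPM (from Hbb-bs, -0.89, to Hba-a1, 0.19). Hbb-bs and Hba-a1 have close copies too, and their single values are uncertain. The hepatocyte markers ran from -0.13 for Cps1 to 0.09 for Serpina1a, with 1 of 6 above 0. No defining marker with a value in these lists was at 0 in both libraries. The part of cell composition in the Cyp2d values was not tested.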

How the data were processed

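Liver RNA of 5 male mice per genotype was pooled, and 1 stranded total RNA library per genotype was sequenced in paired 100-base reads. Per the submitters' processing notes and the study's methods, CASAVA 1.8.2 and RSEM 1.2.09 with Bowtie were used on mm10. The authors deposited posterior mean TPM per gene (24054 genes) and, from EBSeq, a table of 16318 genes with a signal per library (read estimates scaled by a size factor), here called the authors' means. That table names its columns by condition number. They were matched to the genotypes through a heading in the study's supplement. Its posterior probabilities and fold changes were not used. The TPM add up to 1005325 (KO) and 994702 (WT), so they are shares only approximately, and were not rescaled to equal sums. The value of 1 read was taken as 1.16 in KO and 0.86 in WT, the most frequent low value. Whole reads were not recovered for nearly all genes, so no count test was run, nor any p-value computed.

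Changes used a pseudocount of 1 TPM. Genes assessed had a mean TPM of 1 or more and a TPM above 0 in both libraries. The fold rule was 1.4 or 0.6. P450 genes were 99 symbols of Cyp, family number, subfamily letter and gene number, which leaves out symbols ending in -ps but keeps Cyp2d13. Named genes were the members, Cyp2d pseudogenes, Pgrmc1, the highest and lowest gene of each list (1 of these is not reported here), the cluster's genes and neighbours, and P450 subfamily sums. Por, Pgrmc2, Hnf4a, Stat5b, Ghr, Nr0b2 and Hsd3b5 were added after their values had been seen. The members and lists were chosen with earlier results of these data known. Coordinates are RefSeq genes on GRCm38.p6. RefSeq promoters matched 5 of 9 members by symbol, and GENCODE M21 coding sequences matched 8. Alternatives were centring on the median gene, a pseudocount of 0.1, rescaling after removal of the 50 most abundant genes, the authors' means, other minimums and folds, other P450 families, and sums with the pseudogene or without Cyp2d9. Software was scipy 1.17.1, pandas 2.3.3 and numpy 2.4.6 under Python 3.11.15, with matplotlib 3.10.9 for plots.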

Additional observations from a re-analysis of the deposited data

How the results depend on the processing

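The summed Cyp2d difference stayed above 0 under every alternative tried, between 0.036 and 0.078 on the log2 scale against 0.064 as reported. The lowest of these, 0.036, was the sum without Cyp2d9, the alternative under which it moved by more than its counting error. The median change of the members stayed between 0.059 and 0.097. The count past the fold rule was 0 under each alternative, also at 1.2-fold, since the highest change of a member above 1 TPM under any setting was 1.192-fold. The share of P450 TPM moved with its denominator, to 14.6% in KO and 15.8% in WT with P450 families 1 to 4, and to 12.0% and 13.0% with the authors' means, and it was lower in KO each time. With the authors' means and with the smaller pseudocount, 0 single members changed sign. Rescaling (shift 0.000) and centring (median gene -0.013) were too small to move a member. Cyp2d34 went from -0.026 to -0.379 with the authors' means, on too few reads to be read as a change. Depth limits Cyp2d11, Cyp2d12 and Cyp2d34, whose intervals span changes of 0.5 or more in either direction. The spread between mice was not measured. No paired analysis was possible because RNA was pooled into 1 library per genotype.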
